A study of Homo sapiens with 2 samples.

Results

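The replication-dependent histone genes are the clustered genes that supply most histone protein when DNA is copied. Histones H2A, H2B, H3 and H4 form the core around which DNA is wound, and the linker histone H1 binds where DNA enters and leaves that core. Most messages of these genes carry no poly(A) tail and end just after a short RNA stem-loop, which the protein SLBP binds and which ties their processing and decay to S phase. Some of the genes also make longer, polyadenylated messages. The members were all gene symbols of the 4 histone clusters, those beginning HIST1H, HIST2H, HIST3H or HIST4H, each taken from the transcript row whose mean over both libraries was highest. This gave 70 of the 19096 gene symbols in the tables, of which 64 encode core histones and 6 encode linker histones.

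The libraries came from P493-6, a human B cell line whose c-Myc transgene is shut off by tetracycline. The low c-Myc group was 1 library of cells grown in RPMI 1640 with serum and taken 0 h after release of the transgene, and the high c-Myc group was 1 library of the same line taken 24 h after release. Synthetic RNAs were added by cell number before polyadenylated RNA was selected in 2 rounds. The libraries are called before and after release here. Each group held 1 library, so differences are given without a replicate check or a test and describe 1 pair of libraries from 1 cell line. The values are RPKM, which divide the reads of a transcript by its length and by the reads of its library, so that levels of genes are compared per length. A poly(A)-selected library samples the tailed messages of these genes and whatever untailed message passes the selection, and the 2 kinds are not separated in the tables.

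Depth, read from the steps between low RPKM values, was about 103000000 reads before release and 105250000 after it. MYC itself had an RPKM of 836 before and 2358 after release. All 6 B cell markers were present in both libraries, with summed RPKM of 3219 and 1227. The summed RPKM of the 5 myeloid markers was 151 and 35.6. Of these, CD68 (66.5 and 11.1), ITGAM (56.8 and 19.5) and LYZ (27.2 and 4.91) were present and lower after release, while CD14 and CSF1R were under 0.1 in both libraries. The 5 T cell markers summed to 11.2 and 1.83, with CD3E at 8.30 and 1.499, CD3G at 2.10 and 0.13, and CD3D and CD8A at 0. The 5 fibroblast and epithelial markers summed to 19.2 and 13.0, with PDGFRB at 10.7 and 2.80, COL1A1 at 8.06 and 9.23, and COL3A1 and KRT18 at 0. The part of other cell types in the histone values was not tested.

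The stem-loop is shown first because it takes the place of the poly(A) tail in most of these messages. It was sought as GG, any 3 bases, TT, any base, T, any base, A, any 3 bases and CC on the sense strand of the GENCODE 29 transcripts, near or past the end of the coding part, and was found in 32 of the 70 members. Many of the other 38 are annotated as little more than their coding part, so no match says only that these letters are not in the annotated transcript. Capitals mark the 6-base arms of the stem and lower case the 4-base loop.
Form of HIST1H2AC, HIST2H2BE, HIST3H2A and 14 others: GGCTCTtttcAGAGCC
Form of HIST1H2BC, HIST1H2BD, HIST1H2BF, HIST1H3G and HIST3H3: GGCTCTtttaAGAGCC
Form of HIST1H4B, HIST1H4E, HIST1H4H, HIST1H4J and HIST4H4: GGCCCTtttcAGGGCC
Form of HIST2H4A, HIST2H4B and HIST1H4I: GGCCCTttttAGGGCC
All 8 H4 genes with a match had the arms of the last pair of forms, and no gene of another type did. HIST1H3E and HIST1H2AG each had a form of their own. In 23 of the 32 members at least 1 annotated transcript ran more than 100 bases past the stem-loop, and in the other 9 no transcript with the motif did. One of these 9, HIST1H2BD, also has an annotated transcript without the motif.

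The promoters of 65 members could be paired with RefSeq (GRCh38.p14), and their 250 bases before the start were searched on both strands for 5 short motifs, none of which contains another. The octamer ATTTGCAT, the site through which OCT1 acts on H2B genes, lay in 14 of 18 H2B promoters and 11 of 16 H2A promoters, against 1 of 12 for H3, none of 13 for H4, none of 6 for H1 and 1.66% of all 27305 promoters. The H1 box AAACACA lay in all 6 H1 promoters, in no core promoter and in 4.95% of all promoters. CCAAT was present in 55 of the 65 (33.0% of all promoters) and was missing only in H4, where 3 of 13 had it. TATAAA was present in 43 of the 65, against 11.1% of all promoters. The E-box CACGTG, to which MYC and MAX bind, was in none of the 65 and in 6.49% of all promoters. These matches describe letters and not bound sites. The 210 bases before the start are printed for HIST1H1C, the most abundant member, for HIST2H2BE and HIST1H2BC, which were far lower after release, and for HIST3H2A, which was far higher. Capitals mark the motifs, and the coordinates are those of GRCh38.p14.
HIST1H1C, minus strand, chr6:26056471-26056680: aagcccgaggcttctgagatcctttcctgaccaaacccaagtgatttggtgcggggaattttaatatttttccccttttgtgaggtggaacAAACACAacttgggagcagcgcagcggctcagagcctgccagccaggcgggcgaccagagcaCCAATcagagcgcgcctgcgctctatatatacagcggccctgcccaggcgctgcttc
HIST2H2BE, minus strand, chr1:149886683-149886892: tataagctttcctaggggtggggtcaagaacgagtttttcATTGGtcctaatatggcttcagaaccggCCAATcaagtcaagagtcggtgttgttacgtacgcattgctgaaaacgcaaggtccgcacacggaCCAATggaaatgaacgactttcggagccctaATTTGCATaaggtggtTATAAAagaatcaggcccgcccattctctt
HIST1H2BC, minus strand, chr6:26123927-26124136: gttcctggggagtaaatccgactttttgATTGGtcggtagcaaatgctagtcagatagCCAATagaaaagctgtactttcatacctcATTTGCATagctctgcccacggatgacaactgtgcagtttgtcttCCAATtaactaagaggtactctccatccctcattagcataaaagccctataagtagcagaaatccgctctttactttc
HIST3H2A, minus strand, chr1:228457874-228458083: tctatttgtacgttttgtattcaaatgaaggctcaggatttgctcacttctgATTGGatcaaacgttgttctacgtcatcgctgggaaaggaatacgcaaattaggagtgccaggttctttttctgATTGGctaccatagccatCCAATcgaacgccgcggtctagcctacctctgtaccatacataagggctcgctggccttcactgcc
The HIST1H1C stretch holds the H1 box and a CCAAT box. Those of HIST2H2BE and HIST1H2BC hold an octamer and 3 CCAAT boxes on either strand, with a TATA box in HIST2H2BE, and the HIST3H2A stretch holds 3 CCAAT boxes and no octamer.

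The first comparison asked how the RPKM of histone messages differed after c-Myc was released. Most histone genes with a mean RPKM of at least 1 were lower after release, with the medians of H1 and H2B genes furthest down, while HIST3H2A stood far above its earlier level. Of the 70 members, 31 had a mean RPKM of at least 1 over both libraries, 25 lay below that with a value above 0 in both, 6 were listed at 0 after release alone, 1 before it alone, and 7 in both libraries. Among the 31, RPKM was lower after release for 27 and higher for 4. A gene was called at least 2-fold higher or lower from the log2 ratio with a pseudocount of 0.5 added to both RPKM values, which draws in the ratios of weak genes. By that rule 13 of the 31 (41.9%) were lower, 1 (3.23%) was higher and 17 lay between, with a median of -0.93. Over the 10272 genes at that level 9.74% were lower and 24.9% higher, around a median of 0.22, and 41.4% had a lower RPKM after release by any amount. The median GC content was 57.7% for the transcripts of the 31 members and 50.3% for those of all genes at that level. After a correction for GC content 20 of the 31 were lower, and the matching share over all genes is not given here. A filter on the mean also keeps genes that reach 1 in a single library, such as HIST1H2BC (6.34 and 0.37) and HIST3H2A (0.27 and 7.25). Among the members called lower, HIST1H1C, HIST1H2AE, HIST1H2BD and HIST1H2BG were above 1 in both libraries. All others called lower were under 1 after release, and HIST3H2A, the 1 called higher, was under 1 before it. Most calls thus come from members that passed through the library where they were high. The tally depends on this filter. With no filter, 16 of the 70 members were called lower, 5 were called higher, and the median moved to -0.14. When the mean had to reach 5, the members left were HIST1H1C, HIST1H2AC, HIST2H2AA3, HIST2H2AA4, HIST1H2BK, HIST1H2BD, HIST2H4A and HIST2H4B. Of these 2 were called lower, and the median stayed at -0.93. Shares over all genes under these other filters are not given here. In bulk RNA fewer cells of a kind and less RNA per cell cannot be told apart, so cells in S phase and message per cell are mixed in these values. For single genes the log2 ratio of after over before release is that of the RPKM as deposited, without a pseudocount, followed by its 95% interval for counting error alone.

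**Figure D1:**
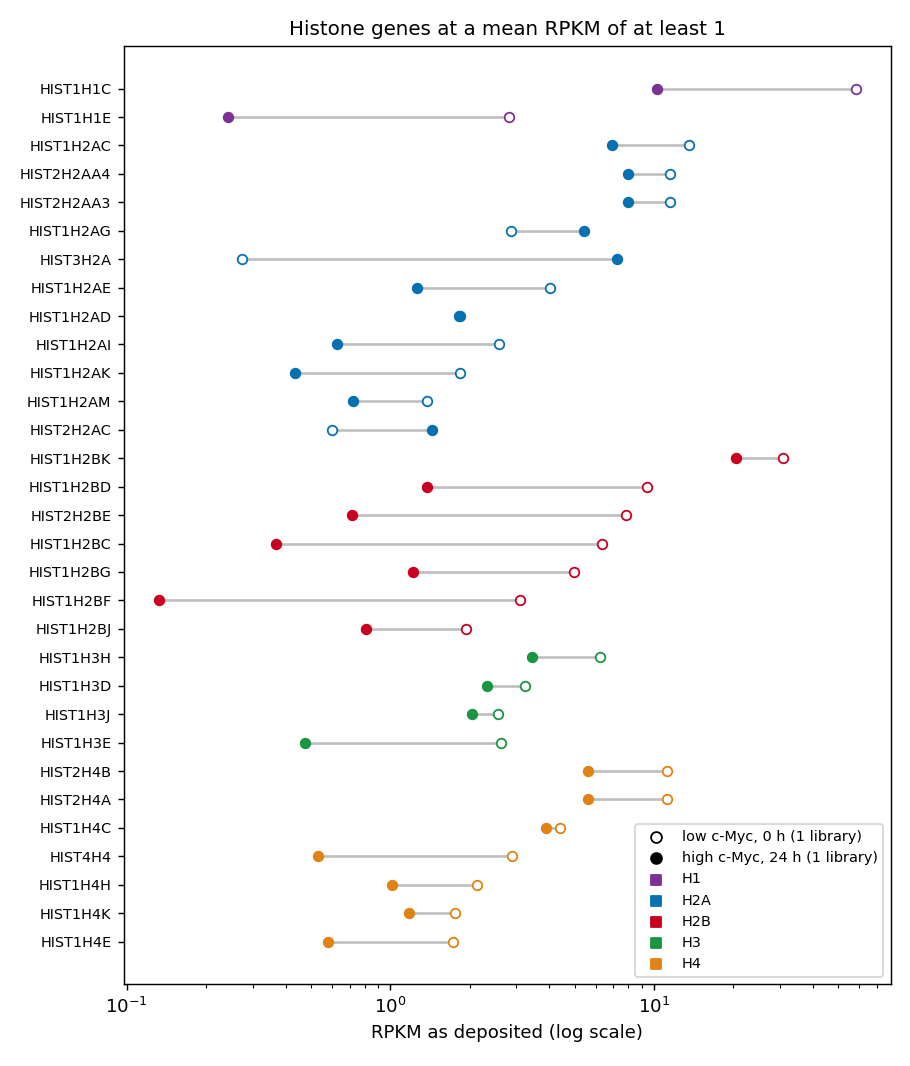
RPKM as deposited, on a log axis, of the 31 histone genes with a mean of at least 1, with open points for the low c-Myc library and filled points for the high one, coloured by histone type. The filled point lies to the left of the open one for 27 genes, and that of HIST3H2A lies furthest to the right of its open one, at 0.27 and 7.25.

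Linker histone genes were represented mainly by HIST1H1C, which encodes a widely expressed H1. Its RPKM was 58.2 before release, the highest of all members, and 10.3 after it. This was 5.67-fold lower (log2 ratio -2.50, interval -2.62 to -2.38). HIST1H1E, another somatic H1, stood at 2.82 and 0.24, a log2 ratio of -3.54 (-4.33 to -2.80). The remaining H1 genes had means under 1. HIST1H1D stood at 1.54 and 0.15 (log2 ratio -3.39, -4.53 to -2.49). With the pseudocount the log2 ratios were -2.45 for HIST1H1C, -2.16 for HIST1H1E and -1.66 for HIST1H1D, so the order of the 3 genes depends on it. HIST1H1B stood at 0.75 and 0.49, with an interval from -1.26 to 0.04 that includes no difference. HIST1H1T, the testis H1 gene, was near the limit of detection at 0.05 and 0.18, and HIST1H1A stood at 0.04 before release and was listed at 0 after it. Without HIST1H1C the summed RPKM of the H1 genes was 5.20 and 1.06.

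H2B genes differed widely among themselves. HIST1H2BK, the most abundant core gene, had an RPKM of 30.9 before and 20.4 after release, a log2 ratio of -0.60 (-0.73 to -0.47). HIST2H2BE, an H2B gene of the HIST2 cluster, stood at 7.80 and 0.71 (-3.45, -4.09 to -2.91). HIST1H2BC stood at 6.34 and 0.37 (-4.10, -4.93 to -3.32). HIST1H2BK was thus 1.52-fold lower, but these 2 genes were 10.9-fold and 17.2-fold lower. HIST1H2BF stood at 3.09 and 0.13 (-4.55, -6.26 to -3.35), the lowest ratio of any member with a mean of at least 1. HIST1H2BG stood at 4.96 and 1.22 (-2.03, -2.53 to -1.58), and HIST1H2BJ at 1.94 and 0.81 (-1.26, -1.90 to -0.64). All 7 H2B genes at a mean of at least 1 were lower after release, and 5 were called.

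HIST1H2BD is listed with 2 transcripts that end differently, which lets message forms of 1 gene be set side by side. The transcript NM_138720, whose paired annotation has no stem-loop motif, stood at an RPKM of 9.38 and 1.38, a log2 ratio of -2.77. The transcript NM_021063, which ends just past the stem-loop, stood at 7.55 and 0.80, a log2 ratio of -3.24. A polyadenylation signal was found near the end of an annotated transcript of this gene with the motif, so the forms are not a plain contrast of tailed and untailed message. Both forms were lower after release, although the transcripts share the coding part and their reads are not independent.

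H2A genes lay on both sides. HIST1H2AC stood at 13.6 before and 6.92 after release (log2 ratio -0.98, -1.19 to -0.76). HIST2H2AA3 and HIST2H2AA4, a pair of near-identical copies, carried the same values, 11.5 and 7.998 (-0.53, -0.74 to -0.32), and cannot be told apart. HIST1H2AE stood at 4.04 and 1.26 (-1.68, -2.15 to -1.21). HIST1H2AI and HIST1H2AK were also called lower, with log2 ratios of -2.04 (-2.71 to -1.40) and -2.08 (-2.90 to -1.31). HIST1H2AM stood at 1.38 and 0.72 (-0.93, -1.60 to -0.24). Against these, HIST3H2A, the H2A gene of the small HIST3 cluster, stood at 0.27 before and 7.25 after release. This was 26.5-fold higher (log2 ratio 4.73, 3.87 to 5.75), and it was the 1 member called higher. HIST1H2AG stood at 2.87 and 5.41 (0.92, 0.59 to 1.26) and HIST2H2AC at 0.60 and 1.43 (1.26, 0.53 to 1.99), both higher but under the 2-fold rule with the pseudocount. HIST1H2AD was level at 1.81 and 1.84. Of the 11 H2A genes at a mean of at least 1, 3 were called lower, 1 higher and 7 neither.

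All H3 and H4 genes at a mean of at least 1 were lower after release, but most were not called lower by the 2-fold rule. HIST1H3H, the most abundant H3 member, stood at 6.24 before and 3.43 after release (log2 ratio -0.86, -1.17 to -0.57). HIST1H3D stood at 3.24 and 2.33 (-0.47, -0.86 to -0.09) and HIST1H3J at 2.56 and 2.05, with an interval of -0.75 to 0.09 that includes no difference. HIST1H3E was the 1 of these 4 H3 genes called lower, at 2.63 and 0.47 (-2.47, -3.26 to -1.79). Among H4 genes, the copies HIST2H4A and HIST2H4B shared the values 11.2 and 5.63 (-0.99, -1.25 to -0.73). HIST1H4C, in the main cluster, stood at 4.41 and 3.89 (-0.18, -0.53 to 0.19), an interval that includes no difference. HIST1H4H stood at 2.13 and 1.02 (-1.07, -1.72 to -0.45) and HIST1H4K at 1.75 and 1.18 (-0.57, -1.22 to 0.03). HIST4H4, the gene that lies apart from the other clusters, stood at 2.90 and 0.53 (-2.45, -3.31 to -1.71). Together with HIST1H4E at 1.73 and 0.58 it was 1 of 2 called lower among the 7 H4 genes.

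Set against each other, core genes at a mean of at least 1 had a median log2 ratio (with the pseudocount) of -0.90 over 29 genes, of which 11 were called lower and 1 higher. The 2 linker genes at that level were both called lower, with a median of -2.30. By type the medians at that level were -2.40 for H2B, -0.93 for H4, -0.59 for H3 and -0.50 for H2A. By the median of these genes H2B thus lay with H1 and apart from the other core types. Both contrasts depend on the filter. With no filter the core median was -0.13 and the linker median -0.99. HIST1H1E, HIST2H2BE, HIST1H2BC and HIST1H2BF were under 1 after release, and all 7 weaker H2B genes with a value in both libraries were higher. Summed RPKM before and after release, with identical copies counted once, was 63.4 and 11.3 for H1, 67.6 and 31.1 for H2B, 41.7 and 37.2 for H2A, 26.8 and 14.9 for H4, and 17.5 and 11.1 for H3. The log2 ratio of the sums was -1.12 for H2B, nearer to -0.84 for H4 than to -2.48 for H1. H1 genes made up 29.2% of the summed histone RPKM before release and 10.7% after it, while the share of H2A genes was 19.2% and 35.2%. The sum over all members was 217 and 106, and 128 and 74.9 without HIST1H1C and HIST1H2BK. By cluster the sum was 182 and 80.2 for HIST1, 31.3 and 16.7 for HIST2, 2.90 and 0.53 for HIST4, which has 1 gene, and 0.90 and 8.16 for HIST3. HIST3 was the 1 cluster with a higher sum after release, and HIST3H2A was 88.9% of it there.

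**Figure D2:**
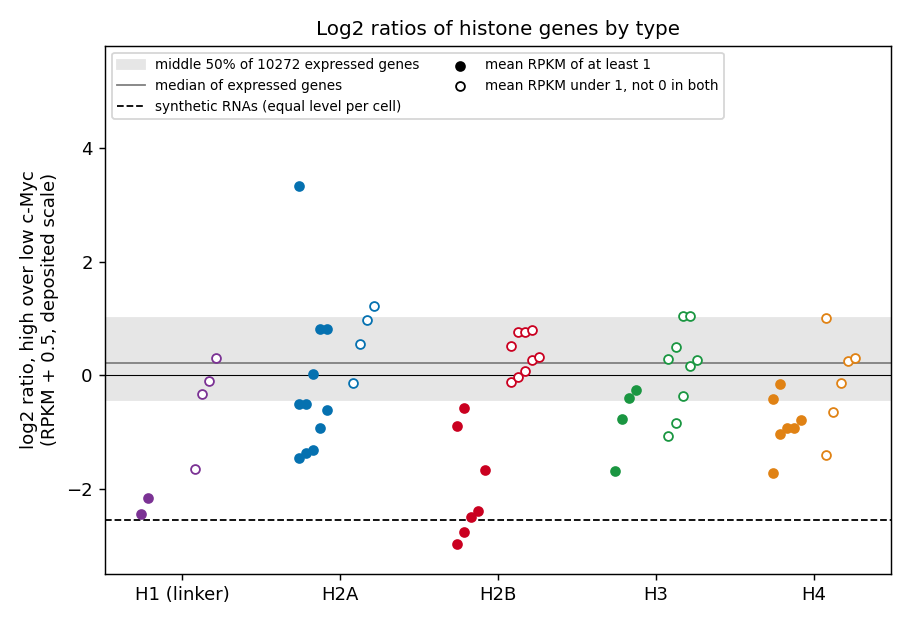
Log2 ratio of high over low c-Myc (RPKM + 0.5) for each histone gene by type, with filled points for a mean RPKM of at least 1 and open points for weaker genes, beside the median and middle 50% of all expressed genes (grey). Both filled H1 points and 4 of the filled H2B points lie between -2.98 and -2.16, around the dashed line of the synthetic RNAs at -2.56. That line has no pseudocount, so it marks an equal level per cell only for genes with RPKM far above 0.5 in both libraries.

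**Figure D3:**
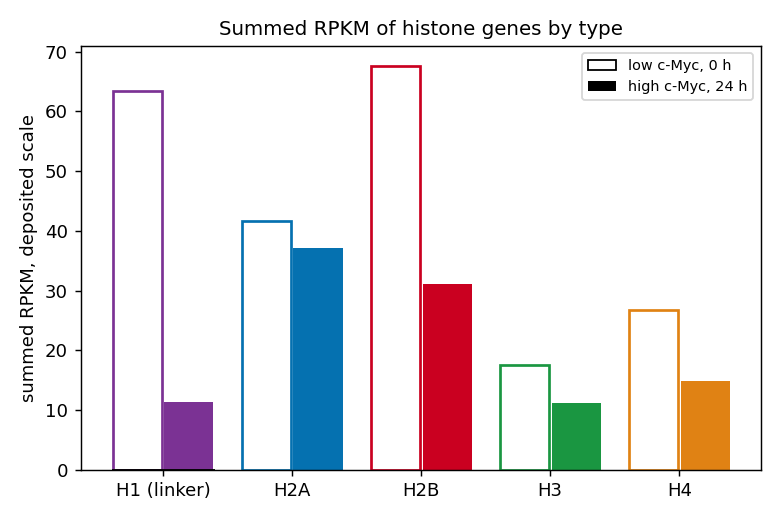
Summed RPKM of the histone genes of each type in the low c-Myc library (open bars) and the high one (filled bars), with identical copies counted once and no error bars because each group had 1 library. H1 stood at 63.4 and 11.3, and H2A at 41.7 and 37.2.

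Most of the weaker members with a value in both libraries were higher after release. Of the 25 members with a mean RPKM under 1 and a value above 0 in both libraries, 19 (76%) were higher after release and 6 lower, against 45.5% higher among all 3033 genes in that range. Their log2 ratios had a median of 1.003, against -0.12 for those genes. At least 2-fold higher were 13 (52%), against 23.4%, and at least 2-fold lower were 4 (16%), against 28.4%. All 7 such H2B genes, 3 of 4 H2A genes, 5 of 6 H3 genes and 3 of 5 H4 genes were higher, but only 1 of 3 H1 genes. Their RPKM ran from 0.02 to 1.54 before release and from 0.03 to 1.33 after it, so that many rest on few reads. The following were singled out after their values were seen. HIST1H4A stood at 0.03 and 0.56 (log2 ratio 4.43, 1.48 to 9.52). HIST1H2AH stood at 0.18 and 1.08 (2.61, 1.46 to 4.02), and the copies HIST2H3A and HIST2H3C at 0.15 and 0.84 (2.46, 1.29 to 4.09). HIST1H4D and HIST1H3B went against this, at 0.82 and 0.56 before release and listed at 0 after it. With the 6 members listed at 0 after release alone and the 1 listed at 0 before it alone, 20 of 32 weak members (62.5%) were higher and 12 lower, against 39.4% higher among all 4311 genes chosen the same way.

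Many H2A and H2B genes sit head to head and share the stretch between their starts, as HIST2H2AC and HIST2H2BE do across the promoter printed above. In the annotation 11 such pairs started within 1000 bases of each other, and 9 had values above 0 for both genes in both libraries. These pairs were looked at after the values of their members were known. The H2A gene had the higher ratio in 8 of the 9, by a median of 3.13 on the log2 scale. In 4 pairs the H2A gene was higher and the H2B gene lower after release, in 1 the reverse, in 2 both were higher and in 2 both lower. One of the first 4 is HIST1H2AD, level at 0.02, beside HIST1H2BF at -4.55. HIST2H2AC and HIST2H2BE were furthest apart, with log2 ratios of 1.26 and -3.45. HIST1H2AG stood at 0.92 against -1.26 for HIST1H2BJ, and HIST1H2AH at 2.61 against -0.60 for HIST1H2BK, although HIST1H2AH had an RPKM of only 0.18 before release. HIST3H2A and HIST3H2BB stood at 4.73 and 0.54, and HIST1H2AC and HIST1H2BC at -0.98 and -4.10. HIST1H2AI and HIST1H2BL were the exception, at -2.04 and 1.29.

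**Figure D4:**
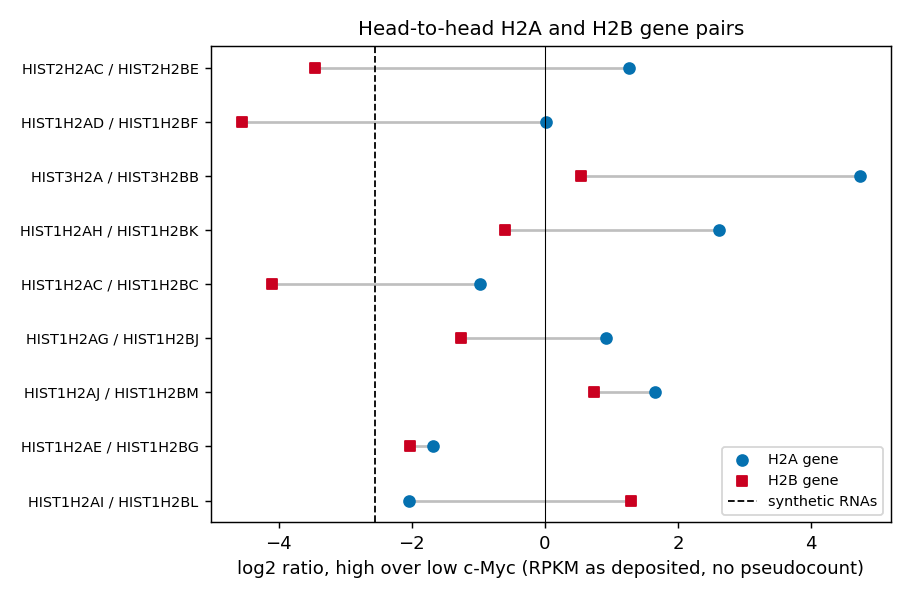
Log2 ratio of high over low c-Myc, from the RPKM as deposited, for the H2A gene (circle) and H2B gene (square) of each of 9 head-to-head pairs, with the synthetic RNAs as a dashed line. The circle lies to the right of the square in 8 pairs, and HIST1H2AI with HIST1H2BL is the exception.

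Members called lower were found with every kind of annotated 3′ end. Of 14 members at a mean of at least 1 with a transcript running over 100 bases past the stem-loop, 7 were called lower and 1, HIST3H2A, higher, with a median log2 ratio (with the pseudocount) of -0.99. Of 5 whose transcripts with the motif stop near it, 3 were called lower and 0 higher, around a median of -1.37. These include HIST1H2BD, whose value is that of its transcript without the motif, and without it 2 of 4 were called lower, around a median of -0.93. Of the 12 with no motif in the annotated transcript 3 were called lower and 0 higher, around a median of -0.51. HIST1H2AG, which runs 1761 bases past its stem-loop, was higher, and HIST2H2BE, which runs 1729 bases past, was far lower.

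The second comparison set the members per cell, relative to 46 synthetic RNAs that reached an RPKM of 1 before and after release. Their median log2 ratio, which was subtracted, was -2.56 (SD 0.54 over the synthetic RNAs). With the pseudocount of 0.5, most histone messages at a mean of at least 1 were at a higher level per cell after release. By that measure the 2 H1 genes and 5 of the 7 H2B genes at that level stayed within 2-fold, which for some H2B genes depends on the pseudocount. Of the 31 members at a mean of at least 1, 22 (71.0%) were at least 2-fold higher per cell with the pseudocount. A further 9 lay between and 0 were 2-fold lower, around a median of 1.63. Over all 10272 genes 97.1% were higher per cell, 0.0876% were lower, and the median was 2.78. All 11 H2A genes, 6 of 7 H4 genes and 3 of 4 H3 genes were higher per cell, against 2 of 7 H2B genes and neither of the 2 H1 genes. For HIST1H2AE, HIST1H2AI, HIST1H2AK and the H4 gene HIST1H4E the call rests on the pseudocount. From the RPKM as deposited they were 1.84-fold, 1.43-fold, 1.39-fold and 1.97-fold higher per cell. With a pseudocount of 0.1, 8 of the 11 H2A genes and 19 of the 31 members were higher per cell, and in the deposited column renormalized to the synthetic RNAs 7 and 15 were. HIST1H1C was 1.04-fold its earlier level per cell from the RPKM as deposited, and HIST1H2BK was 3.88-fold higher. HIST1H2BC was 2.92-fold lower per cell and HIST1H2BF 3.97-fold lower from the RPKM as deposited, while with the pseudocount their log2 ratios per cell were -0.42 and 0.05. HIST3H2A was 156-fold higher per cell from the RPKM as deposited, which rests on an RPKM of only 0.27 before release. Its log2 ratio per cell was 7.28 on that scale, 5.88 with the pseudocount and 4.72 in the renormalized column. Summed over members, histone RPKM was 2.86-fold higher per cell, from 1.05-fold for H1 to 5.24-fold for H2A.

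Genes that work with histones were set beside the members, and their counts read against the 24.9% of all genes called higher and 9.74% called lower. SLBP, which binds the stem-loop, had an RPKM of 10.9 before and 34.1 after release, a log2 ratio (with the pseudocount, as for the rest of this paragraph) of 1.60. NPAT and CASP8AP2, which act at histone gene loci in S phase, stood at -0.18 and -0.69. Of the 17 genes of histone message formation and transcription 4 (23.5%) were higher, a share near that of all genes, and 0 lower, around a median of 0.52, with SLBP and RDBP (1.29) at the top and CASP8AP2 and POU2F1 (-0.50), which encodes OCT1, at the bottom. Of 16 histone chaperones and related genes 7 (43.8%) were higher and 1 lower, with a median of 0.85. IPO4, an importin that carries histones, stood at 3.27 and CHAF1A, a subunit of the assembly factor CAF-1, at 2.27, against -1.17 for ATRX and -0.50 for ASF1A. Of 15 cleavage and polyadenylation genes 5 (33.3%) were higher and 0 lower, around a median of 0.48, from CPSF1 at 1.76 and PABPC1 at 1.21 to PAPOLA at -0.17 and PAPOLG at -0.27. Of 21 S phase genes 20 (95.2%) were higher and 0 lower, around a median of 1.99, where CDT1 stood at 3.25 and MCM4 at 2.81 against 0.997 for POLA1 and 1.05 for RFC4. The histone members thus had the lowest median of these lists, at -0.93, while S phase genes had the highest.

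Replacement histone variants, whose genes lie outside the clusters and mostly give polyadenylated messages, also split by gene. Of 11 at a mean of at least 1, 3 (27.3%) were higher and 3 (27.3%) lower, with a median log2 ratio of -0.11. H2AFX, whose product marks DNA breaks when phosphorylated, stood at 8.12 before and 113 after release (3.72), and H2AFY, which encodes macroH2A, stood at 1.31. H1F0, a linker variant of slowly dividing cells, stood at 48.8 and 9.34 (-2.32), beside HIST1H1C at -2.45 on the same scale. H3F3A, whose reads may be shared with near-identical copies, stood lowest, at 6.38 and 0.36 (-3.00). Summed RPKM of the 12 variants was 554 and 511, above the members' 217 and 106 in these poly(A)-selected libraries. This sum covers opposite differences. H1FX, a linker variant and the most abundant before release, stood at 240 and 78.3 (-1.61), while H2AFX and H2AFY were higher after release.

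**Figure D5:**
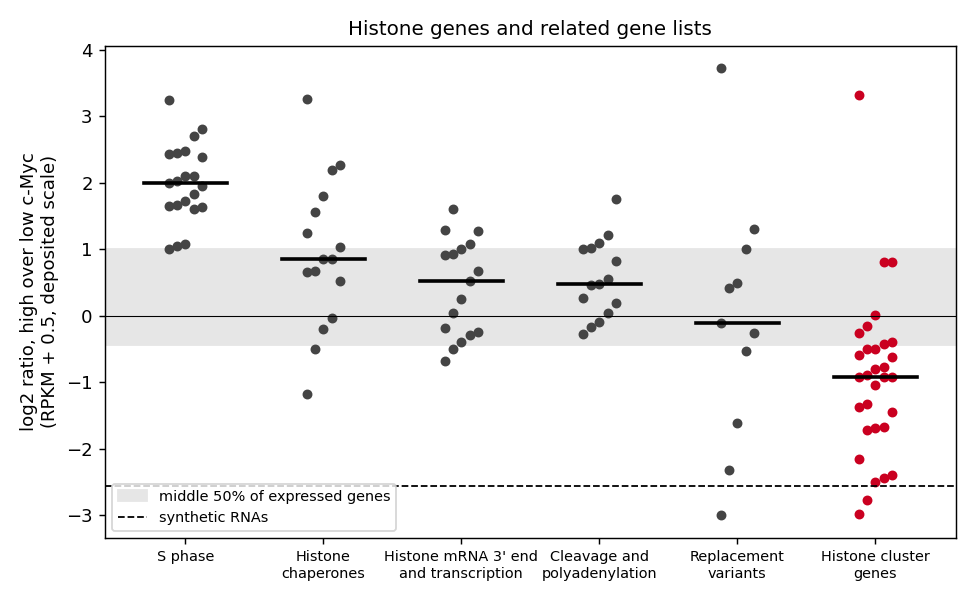
Log2 ratio of high over low c-Myc (RPKM + 0.5) for the genes of 5 related lists and for the histone cluster genes (red), all at a mean RPKM of at least 1, with bars at the medians and the middle 50% of all expressed genes in grey. The median is 1.99 for S phase genes and -0.93 for the histone cluster genes.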

How the data were processed

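Poly(A)-selected RNA of 1 low c-Myc and 1 high c-Myc sample of P493-6 cells was sequenced after 15 PCR cycles with a strand-keeping dUTP method, per the labels' protocols. The submitters' processing notes name Bowtie, without a version, and the genome build hg18. The counting tool, the use of strand and the handling of reads with several matches were not given in the sources used here. Near-identical, overlapping and antisense genes may therefore share reads. The authors deposited RPKM per RefSeq transcript, per the file headers, and a column renormalized to the synthetic RNAs, used only as an alternative.

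The members, gene lists and tests were chosen with earlier results of these data known. Log2 ratios for calls used RPKM + 0.5. Reads per gene were taken as RPKM times coding length (GENCODE 29) times depth, a lower limit, and exact binomial 95% intervals were computed from them. These cover counting error only, because copies made by PCR do not count separate molecules. Depth came from steps between low values, where 49.4% and 46.4% of transcripts with up to 20 reads were at most 0.05 from whole reads, where evenly spread values would give 10%. Genes named by a set rule were all members with a mean RPKM of at least 1, all H1 genes, and the 2 highest and 2 lowest of each related list with SLBP, NPAT and CASP8AP2. Some weaker members were named outside this rule, for their stem-loop form, head-to-head pair, shared sequence or renormalized value. Others, and the variant H1FX, were named after their values were seen. Alternatives were the pseudocount, the filter, the row per symbol, GC content, the scaling and the choice of synthetic RNAs. No symbol of other RNAs without a tail (small nucleolar and similar RNAs) matched, so carry-over of untailed RNA was not analysed here. Of 23 S phase symbols 22 matched. The procedure was tested on simulated data. Calculations used Python 3.11.15, numpy 2.4.6, pandas 2.3.3 and scipy 1.17.1, and plots matplotlib 3.10.9.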

Additional observations from a re-analysis of the deposited data

How the results depend on the processing

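Among members at a mean RPKM of at least 1, the median log2 ratio stayed below 0 on the deposited scale and above 0 per cell under all alternatives run. Without a filter on low values 5 members were at least 2-fold higher, the median was -0.14, the core median -0.13, the linker median -0.99 and their difference 0.87. Per cell, 60 of the 70 were then higher with a median of 2.42, which includes members at 0 that the pseudocount places at the inverse of the synthetic RNA ratio. With a mean RPKM of at least 5, 2 members were lower and 0 higher, and 6 were higher per cell, as fewer members were left. With a pseudocount of 0.1, 2 members were higher, the linker median was -2.79 and 2 members were lower per cell. After a correction for GC content 20 members were lower. With the deposited column renormalized to the synthetic RNAs, 2 members were lower per cell and the median was 0.90. For the GC correction and the renormalized column the cause was not tested. Centring on the median of all genes gave 18 lower members, an equal RPKM sum without synthetic RNAs 19 and quantile normalization 17, each with 1 higher. Over all 10272 genes 1516, 1817 and 1749 were then lower, against 1001 on the deposited scale. Higher were 2036, 1738 and 1793, against 2554. Under the first pair of scalings 18 of the 25 weak members stayed higher. Matching shares over all genes are not given here for the GC correction, the other filters or the weak members under these scalings. Of 539 values of single members 466 moved by less than their counting error, 73 moved by more and 0 changed sign from a called value. This tally includes settings that leave the value of a single member as it was, such as the filters and counting identical values once. It is therefore not a measure of stability. In the deposited column renormalized to the synthetic RNAs 30 members moved by more and 1 did not. Counting symbols with identical values once was chosen after seeing the data and left 13 lower and 1 higher. No paired analysis was possible because each group had 1 library. Depth limits the weak members, of which several rest on fewer than 20 reads.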

Other observations

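Sequence shared between members limits how far single genes can be told apart. More than 50% of the 36-base stretches of the annotated transcript occurred in another histone gene for 12 of the 70 members, among them the copies HIST2H2AA3 and HIST2H2AA4, HIST2H3A and HIST2H3C, and HIST2H4A and HIST2H4B, for which the share was at least 95.2%. The share was 100% for HIST1H4K and 82.0% for HIST1H4J, whose RPKM nevertheless differed, at 1.75 and 0.55 in the low c-Myc library. The median share over all 70 was 4.34%.

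In the deposited column renormalized to the synthetic RNAs, HIST1H3C stood at 30.7 in the high c-Myc library, although its RPKM was 0.21 there and listed at 0 in the low c-Myc library.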
